A study of Mus musculus with 472 samples.

Results

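Cytosolic ribosomal protein genes encode the proteins of the ribosome that translates nuclear messages in the cytoplasm. Members were chosen by symbol alone: Rps or Rpl followed by a digit, together with Rplp0, Rplp1, Rplp2 and Rpsa. Symbols holding -ps, which mark numbered pseudogenes, and the ribosomal S6 kinases (Rps6k) were left out. The rule took 93 of 55450 genes and uses no measured value, but it was set with earlier results of these data known. Of these, 77 encode the standard ribosomal proteins and are called core members here, 46 of the large subunit and 31 of the small subunit. The other 16 are 8 paralogs (Rpl22l1, Rpl36al, Rpl7l1, Rps27l, Rpl3l, Rpl39l, Rpl10l and Rps27rt), 7 genes annotated as pseudogenes (Rps3a2, Rps3a3, Rps4l, Rpl37rt, Rps12l1, Rpl6l and Rpl32l) and Rps19bp1. Rps19bp1 encodes a protein that binds a ribosomal protein, and its name alone brought it in. The core members lie on 19 chromosomes, with 14 of them on chromosome 7 and 4 on chromosome X.

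The values come from 472 retinal ganglion cells, the neurons that carry the output of the retina to the brain, of C57BL/6J mice aged 7 to 9 weeks, with no treatment, transgene or mutation named in the labels. Each cell was recorded with a patch pipette in a flat-mounted retina, its content was drawn into the pipette, and its RNA was amplified by Smart-seq2, which covers whole transcripts and tags no molecules. The labels name no animals, so the cells form 1 group that counts as 1 sample, and nothing was tested between cells. By codes in their library names the cells fall into 5 sets, called sequencing runs here: A (234 cells), B (98), C (62), D (59) and E (19). Some names hold a code like that of a flow cell and lane, and others a block of digits. The labels do not say what either stands for. The cells held 58907 to 13004880 gene counts, with a median of 5184792.5. At least 6 of 12 ganglion cell markers were positive in 451 cells, 95.6% (exact Clopper-Pearson 95% interval 93.3% to 97.2%). A pair of overlapping loci that cover ribosomal RNA, CT010467.1 and AY036118, took a median of 17.1% of the gene counts of a cell and at most 97.7%. Such intervals reflect counting error and leave out any variation between mice.

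A ribosome holds a small subunit, which reads the message, and a large subunit, which joins the amino acids, and each core protein is normally present as a single copy apart from the stalk proteins. Their messages belong to the terminal oligopyrimidine (TOP) class: they start with a C followed by an unbroken stretch of C and T, through which the mTOR pathway and the protein Larp1 control their translation. Neurons make ribosomal proteins in the cell body and also translate in dendrites and axons.

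The start sites of the core genes were rich in such stretches. Sequences from RefSeq on the GRCm38.p6 build, read in the direction of the gene, were matched by symbol for 57 of the 77 core members. Of these, 48 (84.2%) held a run of at least 8 bases that starts with C and continues with only C or T within 50 bases on either side of the start, against 31.9% of 26968 other genes. On the opposite strand such runs were found in 21.1% of the core members and 34.4% of the other genes. Runs of at least 10 bases were found in 37 core members, 64.9%, against 16.3% of the other genes. Among genes with a single start in the table, runs of at least 8 were found in 81.6% of 49 core members and 28.6% of 22813 others. A match describes the letters in this window and is not evidence of a functional site. The windows of 30 bases below show the range from the long run of Rpl35 to Rps28, which has none of 8 or more, with the longest run in capitals.
Rpl35, chr2:39005115-39005144, minus strand: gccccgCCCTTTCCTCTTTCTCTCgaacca
Rpl4, chr9:64173405-64173434, plus strand: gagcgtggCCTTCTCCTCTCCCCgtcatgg
Rpl37a, chr1:72711275-72711304, plus strand: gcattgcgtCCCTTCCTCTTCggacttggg
Rpl41, chr10:128549119-128549148, minus strand: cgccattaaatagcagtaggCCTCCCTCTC
Rps26, chr10:128626484-128626513, minus strand: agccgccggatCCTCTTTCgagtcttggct
Rps28, chr17:33824581-33824610, minus strand: acgctggtgacgaCTCTgtcccgaggattc
The runs are 18 bases in Rpl35, 15 in Rpl4, 12 in Rpl37a, 10 in Rpl41, 8 in Rps26 and 4 in Rps28. The run of Rpl35 begins 7 bases before the annotated start, and that of Rpl41 begins 40 bases after it and reaches the end of the sequence given. The 9 matched core members without a run of 8 had a median detection of 84.7% of cells, beside 83.5% for the 48 with one. Their median r with the other core genes was 0.32 beside 0.31. The excess SD, a measure of cell-to-cell spread described further on, had a median of -0.38 without a run and -0.87 with one. These groups were not matched for the length of the coding sequence. Over the 77 core members that length had a rho of 0.843 with the excess SD. The part of length in this difference was not tested.

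Most ribosomal protein genes were found in most cells. The threshold for a positive gene was 10 CPM, with the counts of a cell scaled so that its genes, spike-ins left out, sum to 1000000. By that measure 72 of the 93 members were positive in at least 50% of cells, where 7.76% of all genes and 19.3% of protein-coding genes were. Among core members 70 of 77 were, 43 of 46 in the large subunit and 27 of 31 in the small subunit. Of the other 16 members only Rpl22l1 and Rpl36al were. At least 90% of cells were positive for 12 members, all of them core, where 0.637% of all genes reached that share. The median core member was positive in 84.7% of cells. A cell had a median of 65 of the 77 core genes positive, with quartiles of 55 and 69.25, a lowest value of 6 and a highest of 77. This number moved with the number of positive genes of a cell (Spearman's rho 0.627 over 472 cells), and both numbers come from the same library of a cell.

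Rpl41, which encodes the shortest ribosomal protein, was the most widely detected member, positive in 460 cells (97.5%, interval 95.6% to 98.7%). Its counts ran from 0 in 5 cells over a median of 70.9 CPM to 1154 CPM. Rpl9 was positive in 94.1% of cells and Rpl3, a protein near the peptidyl transferase centre, in 93.2%. Rpl3 ran from 0 in 3 cells over a median of 465 CPM to 2148 CPM. In the small subunit Rps7 (93.01%) and Rps6 (92.6%) were among the most widely detected. Rps6, the substrate of the S6 kinases, ran from 0 in 12 cells over a median of 189 CPM to 1761 CPM, and its median by run lay between 184 and 203 CPM. For Rpl41, Rpl9, Rpl3 and Rps6 even the lower quartile of cells was above 40 CPM, and each had a tail of cells at or near 0.

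**Figure D1:**
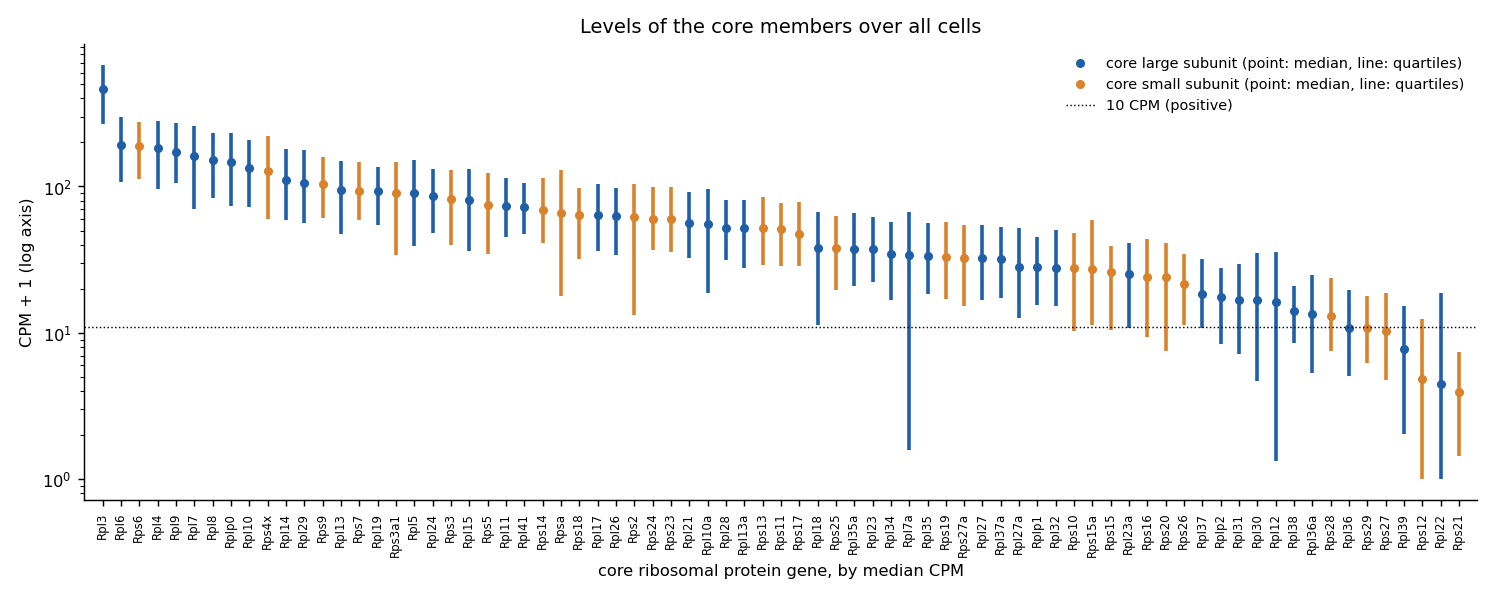
CPM plus 1 (log axis) for 75 of the 77 core members in 472 cells, ordered by median, with points for medians and vertical lines for the quartiles, large subunit in blue and small subunit in orange. The order is one of counts, which in a full-length protocol also grow with transcript length. Rpl3 stands highest with a median of 465 CPM, and Rps21 lowest with 2.96 CPM, below the dotted line at 10 CPM.

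Detection was below 50% of cells for 7 core members: Rpl36 (49.2%), Rps29 (48.1%), Rps27 (46.0%), Rpl39 (37.3%), Rpl22 (34.5%), Rps12 (29.7%) and Rps21 (12.5%). Rps21 had 0 counts in 102 cells, a median of 2.96 CPM and a highest value of 105 CPM, so it was seen in most cells but seldom above 10 CPM. Rps12, a small subunit protein of the beak region, was at 0 in 123 cells, with a median of 3.81 CPM and a highest value of 271 CPM. Rps29 was at 0 in only 19 cells and its quartiles were 5.26 and 16.9 CPM, so the threshold falls near its median. Several of these genes are short, and counts in a full-length protocol also grow with transcript length. Over the 77 core members, coding length had a rho of -0.25 with the share of cells at 0. The part of length in this detection was not tested.

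Per length, the core members spanned a wide range. To compare genes, counts were divided by the exonic length of each gene and scaled to a sum of 1000000 per cell. On that scale Rpl3 was highest, with a mean of 453 ± 301 (SD, n = 472 cells), followed by Rps6 at 395 ± 338, Rpl8 at 376 ± 356 and Rpl29 at 332 ± 323. Rps12 was lowest at 15.0 ± 30.8 and Rps21 next at 17.4 ± 27.7. The highest and the lowest mean differed 30.2-fold, and the middle 50% of the members spanned 4.05-fold. The neighbours named here differed by less than 1 SD of their cells. The order rests partly on the length used. With the median transcript length Rpl3 stayed first (663), Rpl6 (392), Rps7 (331) and Rps6 (321) came next, Rps21 was last (13.4) and the range was 49.5-fold. The ranks by the 2 lengths had a rho of 0.807 over the 77 genes, and 5 genes were among the first 10 by both. The median core large subunit gene had a mean of 101 and the median small subunit gene 68.5.

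By role, the P stalk genes of the large subunit, whose proteins recruit the factors of elongation, were unequal. Rplp0, the base of the stalk, had a per-length mean of 293 ± 262, Rplp1 193 ± 179 and Rplp2 28.3 ± 27.8. With the median transcript length the values were 242, 76.6 and 50.1, so Rplp0 was above its partners in both scales while the gap between Rplp1 and Rplp2 depended on the length. Rpl5 and Rpl11, which carry the smallest ribosomal RNA into the large subunit and can bind the p53 inhibitor Mdm2, were positive in 85.0% and 88.6% of cells, at 78.0 ± 81.7 and 87.5 ± 64.3. Rpl5 shares exonic bases with Fam69a in the annotation.

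Around the exit tunnel for the growing protein, Rpl4 had 304 ± 294, Rpl17 165 ± 146 and Rpl39 21.5 ± 30.5. Rpl39 ran from 0 in 89 cells over a median of 6.80 CPM to 176 CPM, and was the lowest of these 3 genes by both measures. Among small subunit genes at the entry channel and decoding site, Rps23 was positive in 90.7% of cells, Rps3 in 84.7%, Rps2 in 76.1% and Rps15 in 73.7%. Rps2 shares exonic bases with Snhg9 in the annotation and was fractional in 76.4% of its nonzero values.

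Fractional values arise where an estimating counter divides reads among genes. Over 50% of the nonzero values were fractional for 19 of the 77 core members, among them Rpl3 (91.9%), Rps6 (91.7%), Rpl10 (87.7%) and Rpl6 (86.5%). For the median core member 3.52% were, beside 9.46% of nonzero values of all genes. Levels of these 19 genes are uncertain to the extent that reads were split with near-identical copies. In addition, 21 core members overlap exons of another gene, and without stated strand use reads of an antisense partner cannot be told apart. Rpl35, which overlaps Wdr38 and Arpc5l, is one of them.

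Among paralogs, Rpl22l1 exceeded Rpl22 in most cells. Both encode forms of the same large subunit protein, which is known for a role in lymphocyte development as well. Rpl22 (chromosome 4) was positive in 163 cells (34.5%) and ran from 0 in 139 cells over a median of 3.48 CPM to 434 CPM. Rpl22l1 (chromosome 3) was positive in 402 cells (85.2%) and ran from 0 in 36 cells over a median of 33.7 CPM to 1173 CPM. The distributions overlap, but within a cell Rpl22l1 was higher per length in 380 of 472 cells (80.5%, interval 76.6% to 84.0%), and the share was 64.4% to 85.5% in each of the 5 runs. Its per-length mean was 77.4 ± 130 against 19.7 ± 42.3, a ratio of 3.94. With the median transcript length the ratio was 2.81 and Rpl22l1 was higher in 368 cells. Both were positive in 150 cells, where 139 would be reached if the 2 shares were independent, and r of their log2(CPM + 1) was 0.18. Rpl22l1 overlaps Gm33051 on the opposite strand, so part of its counts cannot be assigned.

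**Figure D2:**
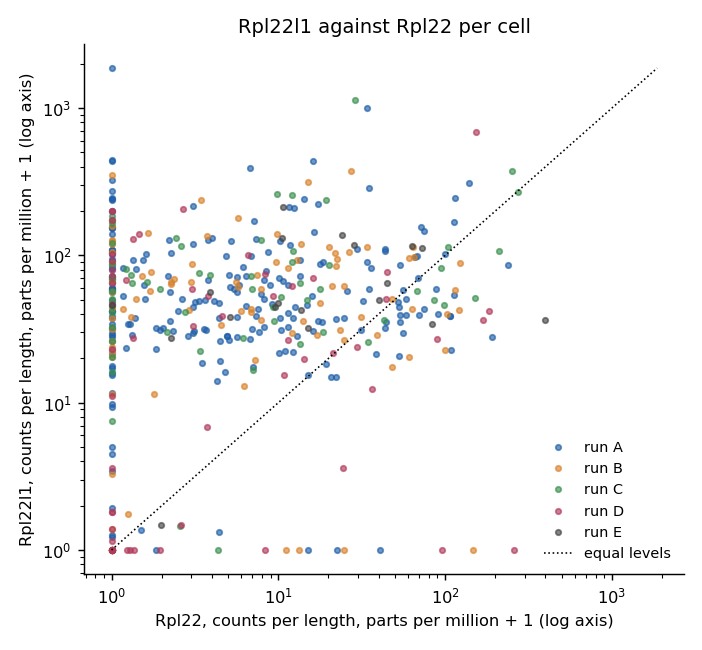
Counts per length of Rpl22l1 against Rpl22, each plus 1 on a log axis, 1 point per cell, coloured by sequencing run, with a dotted line of equal levels. Of the 472 cells 380 lie above the line, many of them on the left edge, where Rpl22 is at 0.

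The coding sequences of these paralogs were compared, since likeness limits how far reads can be told apart. In GENCODE release M21 on GRCm38, Rpl22 and Rpl22l1 were 69.6% identical over their aligned coding bases, gaps included, with a longest shared stretch of 26 bases. Rpl36a and Rpl36al were 87.9% identical, with a longest shared stretch of 24 bases. The length of the reads is not given here, and untranslated bases and pseudogene copies were not aligned. Below is the most alike stretch of 60 coding bases of each pair, positions counted from the start codon of the spliced sequence, with the bases that differ in capitals.
Rpl22, chr4:152325742-152334071, plus strand, coding bases 231 to 290: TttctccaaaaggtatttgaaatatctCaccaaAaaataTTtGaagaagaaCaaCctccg
Rpl22l1, chr3:28805436-28807424, plus strand, coding bases 213 to 272: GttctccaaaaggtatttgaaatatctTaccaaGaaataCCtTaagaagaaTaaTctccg
Rpl36a, chrX:134585654-134588062, plus strand, coding bases 217 to 276: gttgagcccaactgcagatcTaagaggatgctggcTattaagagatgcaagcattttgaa
Rpl36al, chr12:69182731-69184083, minus strand, coding bases 217 to 276: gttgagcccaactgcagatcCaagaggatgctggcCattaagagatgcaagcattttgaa
The 8 differing bases in the stretch of Rpl22 and Rpl22l1 and the 2 in that of Rpl36a and Rpl36al are the smallest numbers found in any 60 aligned bases of each pair.

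Rpl36al was also higher than its partner Rpl36a in most cells, but by a margin that depended on the length used. Rpl36a was positive in 55.9% of cells, with 0 in 62 cells, a median of 12.4 CPM and a highest value of 982 CPM. Rpl36al was positive in 72.7%, with 0 in 68 cells, a median of 23.8 CPM and a highest value of 1897 CPM. Per length Rpl36al was higher in 321 cells (68.0%, interval 63.6% to 72.2%) and its mean was 1.80 times that of Rpl36a. With the median transcript length it was higher in 260 cells and the ratio was 1.09. Rpl36al shares exonic bases with Gm49383 in the annotation.

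The remaining paralogs were below their partners in most cells. Rps27l, a p53 target, was positive in 17.6% of cells and had 0.650 times the per-length mean of Rps27, with higher values in 124 cells. Rpl7l1 was at 0 in 171 cells, with a median of 3.43 CPM, an upper quartile of 59.9 CPM and a highest value of 1402 CPM. Its values thus spread between absence and the range of a core gene, and it exceeded Rpl7 in 30 cells. Rps4l, annotated as a processed copy, was at 0 in 185 cells, with a median of 2.29 CPM, an upper quartile of 51.7 CPM and a highest value of 780 CPM. All of its values were whole numbers, it was positive in 47.2% of cells, and it exceeded Rps4x, the X-linked parent gene, in 86 cells by exonic length and in 46 by median transcript length.

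The paralogs known from other tissues were near absent. Rpl3l, known from striated muscle, was positive in 2 cells and had 0 counts in 468. Rpl39l and Rpl10l, known from male germ cells, were positive in 1 cell and in no cell. The highest value of Rpl10l was 0.162 CPM. In no cell did any of these 3 exceed its partner. In all, 5 members were positive in no cell (Rpl10l, Rps27rt, Rpl6l, Rps12l1 and Rpl32l), which allows a share of up to 0.636% of cells.

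Together the 93 members took a median of 0.606% of the gene counts of a cell, with quartiles of 0.461% and 0.748%, a lowest cell at 0.0258% and a highest at 2.43%. Run medians lay between 0.560% in A and 0.734% in E. Without the ribosomal RNA loci in the total the median was 0.762%, the quartiles 0.593% and 1.01%, and the cells ran from 0.190% to 5.32%. On that total run A had the lowest median, 0.674%, then C with 0.791%, B with 0.930%, E with 0.964% and D with 1.05%, a spread of 1.56-fold. The runs overlap widely, since the quartiles of A were 0.540% and 0.823% and those of D 0.714% and 1.55%. In patched cells, fewer ribosomal messages per cell and more of all other RNA cannot be told apart in a share.

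**Figure D3:**
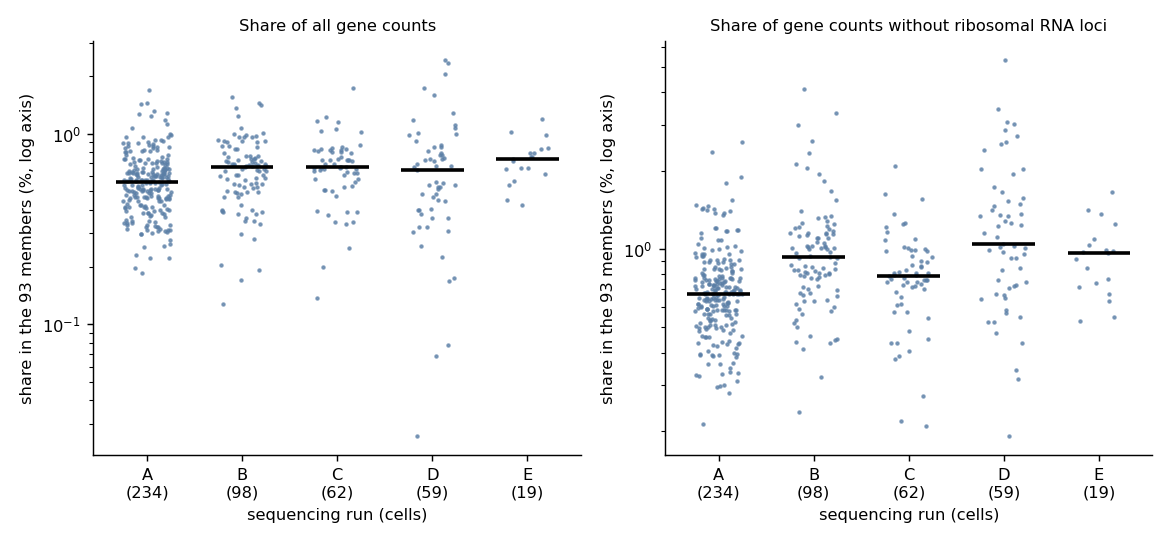
Share of gene counts in the 93 members, in percent on a log axis, for each cell by sequencing run, with bars for run medians; the left panel uses all gene counts and the right panel leaves out the ribosomal RNA loci. Medians run from 0.560% to 0.734% on the left and from 0.674% to 1.05% on the right, and all runs overlap.

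Other properties of the libraries moved with this share. Over 472 cells, the share without ribosomal RNA loci had a rho of 0.431 with the share of these loci (0.355 within runs), -0.280 with the number of positive genes (-0.208 within runs) and 0.0965 with the gene counts. Over 4 groups of 118 cells, from the fewest positive genes (283 to 4070) to the most (6577 to 8937), the median share was 1.03%, 0.770%, 0.690% and 0.741%. With ribosomal RNA in the total these medians were 0.653%, 0.605%, 0.577% and 0.608%, so the third group was lowest on both totals. The highest cell, at 5.32%, belonged to run D and had 698 positive genes, 54.3% ribosomal RNA and 40 positive core genes. Rod photoreceptor markers (7 genes) had a summed level with a median of 433 CPM and a highest value of 241441 CPM, and a rho of 0.289 with the share. The rho was 0.144 for cone, 0.103 for vessel, 0.0991 for bipolar and 0.0786 for erythrocyte markers. It was 0.0406 for microglia, 0.0340 for Müller glia and -0.0203 for amacrine markers. The bipolar list holds Isl1, which is also one of the ganglion cell markers. The part of these properties in the share was not tested.

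The share was set beside markers of ganglion cell classes, with a marker called positive at 10 CPM. Without ribosomal RNA loci, 106 cells positive for Spp1 and Kcng4, markers of alpha cells with large somata, ran from 0.213% over a median of 0.641% to 1.57%. The 79 Tbr1-positive cells had a median of 0.670%, and 50 cells positive for Col25a1 and Cdh6, markers of direction-selective cells, had 0.691%. The 75 cells positive for Opn4 or Eomes, markers of the melanopsin class, had 0.773%, and the 252 cells in none of these sets 0.819%. All sets overlap, and 79 cells are in more than 1 set. Run and detection differ between them: 82 of the 106 cells with Spp1 and Kcng4 came from run A, and their median number of positive genes was 6462.5, against 5165.5 in the 252 cells. Within run A alone the medians were 0.611% for Spp1 and Kcng4, 0.584% for Tbr1, 0.691% for Col25a1 and Cdh6, 0.587% for Opn4 or Eomes and 0.725% for the rest. Within that run the cells with Opn4 or Eomes lay below those with Spp1 and Kcng4 on this total, while outside run A they lay above them, 0.870% against 0.802%. With all gene counts as the total they lay above them within run A as well, 0.510% against 0.474%, and over all runs, 0.651% against 0.503%. On that total the cells in none of the sets had 0.640%. The order also depended on the yardstick: member counts per spike-in count had a median of 0.659 in the cells in none of the sets, 0.859 with Spp1 and Kcng4, 0.868 with Tbr1, 0.917 with Col25a1 and Cdh6 and 1.296 with Opn4 or Eomes. On this scale the cells in none of the sets were lowest and not highest, within run A (0.635) and outside it (0.711) as well. Cells with Opn4 or Eomes were highest in both, at 0.918 and 1.618. The order between these ends changed with the run. Spp1 and Kcng4, Tbr1, and Col25a1 and Cdh6 had 0.696, 0.647 and 0.747 within run A. Outside it they had 1.524, 1.333 and 1.118.

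Counts of the large and small subunit genes stood in a similar ratio in most cells. Large over small counts had a median of 1.92, with quartiles of 1.71 and 2.17, and run medians between 1.87 and 1.97. Single cells ran from 0.347 to 7.33. The 2 sums, as log2(CPM + 1), had an r of 0.86 over 472 cells and also 0.86 within runs; both share the depth and the total of a cell. In the 4 marker sets and the cells outside them the median ratio lay between 1.879 and 2.003.

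**Figure D4:**
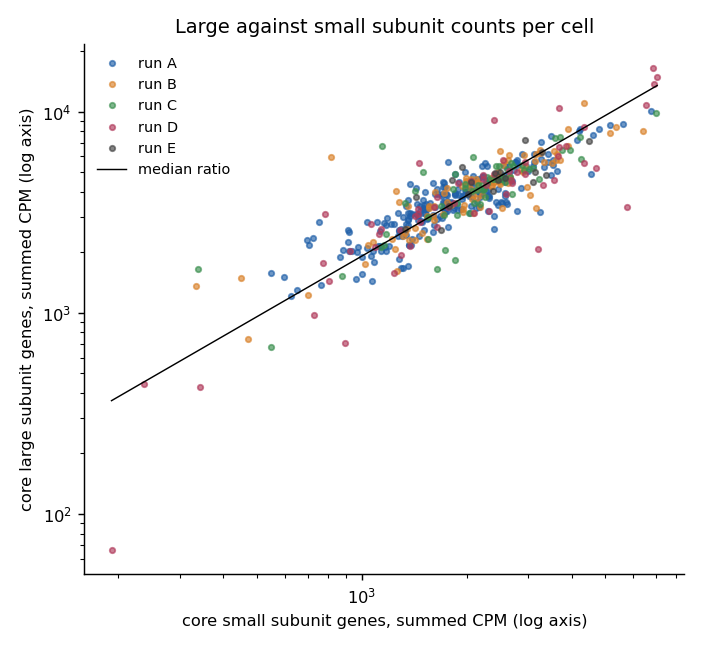
Summed CPM of the 46 core large subunit genes against the 31 core small subunit genes in each cell, both on log axes and coloured by run, with a line at the median ratio of 1.92. Cells follow the line over the range of both sums, and the cells farthest from it have ratios of 0.347 and 7.33.

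Core members varied less from cell to cell than most genes of like level. Genes positive in at least 10% of cells were sorted into 20 bins by mean level, and the median SD of log2(CPM + 1) in a gene's bin was subtracted from its own SD. The difference was below 0 for 74 of the 77 core members, with a median of -0.82, where 49.95% of 11149 genes were below 0. The exceptions were Rpl7 (0.21), Rpl4 (0.09) and Rpl8 (0.05). Rpl38 had the lowest value (-1.67), then Rps29 (-1.57), Rpl37 (-1.47) and Rps28 (-1.46).

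Among core members this spread rose with gene length and also with level. Coding length was that of the annotated transcript with the most coding bases. Over the 77 core members its rho with the excess SD was 0.843. The mean CPM of a gene had a rho of 0.677 with the excess SD, in spite of the bins by level. It also had a rho of 0.778 with coding length, so length and level cannot be told apart here. The 26 shortest, with 138 to 405 coding bases, had a median of -1.15, the 26 of 408 to 582 bases -0.80, and the 25 of 588 to 1257 bases -0.34. Other protein-coding genes of the same lengths showed part of this. Medians for those were -0.32 over 519 genes, -0.13 over 692 genes and 0.01 over 3273 genes, and 85.4%, 69.4% and 48.3% of them were below 0. Among the core members 26 of 26, 26 of 26 and 22 of 25 were below 0. The parts of length and level in the spread of the core members were not tested.

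**Figure D5:**
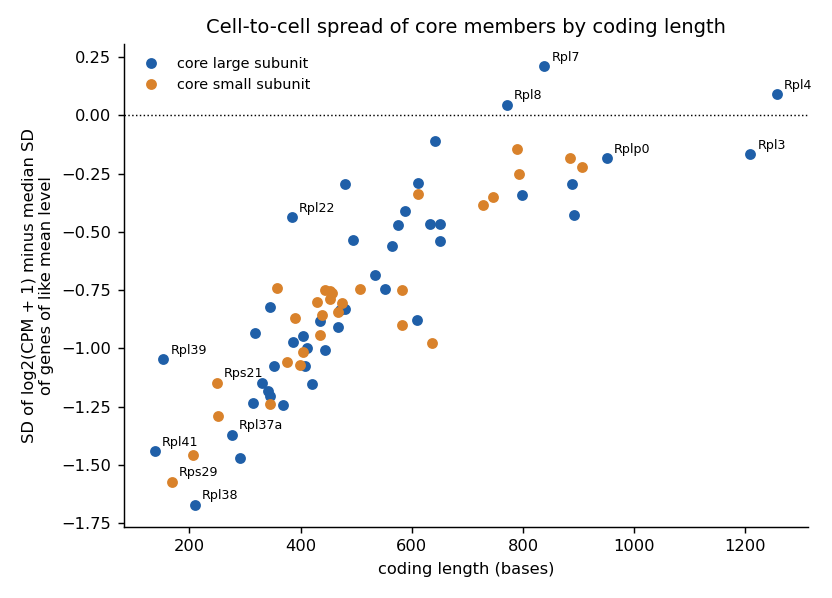
Excess SD of log2(CPM + 1) against coding length in bases for 75 of the 77 core members, large subunit in blue and small subunit in orange, with a dotted line at 0. Values rise from -1.67 for Rpl38 to 0.21 for Rpl7.

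The core members also co-varied to a modest degree. The 2926 pairs had a median Pearson r of 0.25 in log2(CPM + 1) over 472 cells, with 90% of them between 0.11 and 0.37, and 1 pair was below 0. Run-centred values gave a median of 0.23, and values without the ribosomal RNA loci in the total gave 0.22. No value for pairs of other genes is given here for comparison. Pairs of high r included Rpl28 with Rps6 (0.50), Rpl6 with Rps7 (0.50) and Rpl7 with Rpl24 (0.50). The pair of lowest r was Rpl10a and Rpl37 (-0.01). All pairs share the library and total of each cell.

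Each core gene was also set against the sum of the other core genes. The median r was 0.31, from 0.09 in Rpl12 to 0.54 in Rps28, where the median of 4305 genes positive in at least 50% of cells was 0.02. Rps26 (0.50), Rpl37a (0.50) and Rpl35 (0.48) were near the top, and Rpl10a (0.10), Rps12 (0.13) and Rpl7a (0.13) near the bottom. The shortest group by coding length had a median of 0.38, the middle group 0.30 and the longest 0.31, where other genes of these lengths had 0.13, 0.08 and 0.03. Of the paralogs, Rpl22l1 had 0.22, Rps4l 0.10 and Rpl7l1 0.09.

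Outside the members, genes of high r with the summed core included Ubb (0.61), which encodes ubiquitin, the annotated lncRNA Gm10076 (0.59), Tmsb10 (0.55) and Atp5k (0.53). Also among them were Eif1 (0.52), Gnb1 (0.52), Usmg5 (0.51), the annotated processed pseudogene Gm10123 (0.50), Selenow (0.49) and Ppia (0.49). At the other end were Bcan (-0.28), the annotated lncRNAs Gm26917 (-0.27) and Miat (-0.25), Tm9sf4 (-0.25) and Abcc5 (-0.25). These values describe 472 cells that share depth and detection, and nothing follows from them on function.

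Genes around the ribosome were described by the same measures. Of the ribosomal components that the rule misses, Fau, a ubiquitin-like fusion with a small subunit protein, was positive in 93.01% of cells and Rack1, a scaffold on the small subunit, in 69.1%. All 8 elongation factor genes were positive in at least 50% of cells, where 7.76% of all genes and 19.3% of protein-coding genes were. Eef2, the translocase, was in 94.5% with a median of 614 CPM, and Eef1a1 in 89.0% with 350.2 CPM. Their median r with the core sum was 0.16. Of 29 initiation factor genes 27 were, with a median r of 0.12, from -0.08 in Eif4g1 to 0.52 in Eif1. All 15 listed TOP messages that encode no core protein were, among them Tpt1 in 90.3% of cells, with a median r of 0.15. Most of these also belong to the other lists here, and only Tpt1, Hnrnpa1 and Nap1l1 do not.

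Genes that build or regulate ribosomes were detected less often. Of 32 biogenesis genes 13 were positive in at least 50% of cells, where 7.76% of all genes and 19.3% of protein-coding genes were. Their median r with the core sum was 0.03. Ncl, the nucleolar protein nucleolin, was in 83.1% of cells, Npm1 in 75.8%, and Polr1b, a subunit of the polymerase that makes ribosomal RNA, in 24.4%. Of 15 genes of the mTOR and S6 kinase list 5 were, with a median r of -0.02. Mtor was in 74.2% of cells, Rps6kb1, the main S6 kinase gene, in 51.1%, Larp1 in 41.9% and Eif4ebp1 in 3.18%.

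Ribosomal proteins of mitochondria, which are also nuclear genes, were less widely detected than the cytosolic ones. Of 78 such genes 52 were positive in at least 50% of cells, where 7.76% of all genes and 19.3% of protein-coding genes were. None was positive in 90%, a share that 0.637% of all genes reached. Their median r with the cytosolic core sum was 0.10, with a highest value of 0.29 in Mrps21. Their median excess SD was -0.19. Nuclear genes of the respiratory chain were listed by symbol alone, as names starting with Nduf, Uqcr, Cox4 to Cox8 or Atp5. Any gene with such a name is included, whatever its role. This list stood closer to the core members: 75 of 94 were positive in at least 50% of cells and 28 in 90%. The median r was 0.24 and the median excess SD -0.66 over the 82 that could be given one. Ndufa4 (0.46), Ndufc1 (0.48) and Atp5k (0.53) had the highest values of r in that list. Their share of gene counts had a median of 0.945%, beside 0.590% for the core ribosomal genes.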

How the data were processed

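Single retinal ganglion cells were profiled by Smart-seq2. The authors deposited estimated counts, 1.37% of them fractional, for 55450 genes and 92 spike-in RNAs in each cell. The aligner was STAR 2.7.0 and the build mm10, per the submitters' processing notes. For the quantifier, its use of strand and the annotation, the sources used here give nothing. Cells were matched to libraries through a deposited key. The sets called runs were read from codes in the library names, whose meaning the labels do not give.

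Estimated counts were rounded first, scaled so that the genes of a cell, spike-ins excluded, sum to 1000000, and logged as log2(CPM + 1). Positive means 10 CPM or more. Lengths and positions came from GENCODE mouse release 21. All 472 cells were used, depth ran from 58907 to 13004880 gene counts, and the highest r of log2 values between 2 cells was 0.67, so no library looked like another used again. The labels name no animals, so the cells are 1 sample and nothing was tested. Shares have exact 95% intervals, and a share of 0 has the limit of 3 counts. Every member and listed gene may be named, with the 12 highest and 5 lowest genes in r with the core sum and the extremes of each measure. Some genes that this rule allows are not reported here, and the gene plots leave them out. The members, lists and rules were chosen with earlier results of these data known. Marker classes use sets of markers, and no cells were clustered or called as doublets. Start site and coding sequences came from RefSeq and GENCODE. The correlation and spread measures were tested on simulated data. Alternatives covered cells kept, runs, totals, depth, threshold, pseudocount, correlation and gene length. Tools were pandas 2.3.3, scipy 1.17.1, numpy 2.4.6 and matplotlib 3.10.9 under Python 3.11.15.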

Additional observations from a re-analysis of the deposited data

Results flagged for a closer look

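The columns left out for -ps in the symbol carried counts. Of 300 such columns 149 had counts, and they took a median of 0.00578% of the gene counts of a cell and at most 0.0426%, where 3 counts in the median cell are 5.79e-05%. Set against the counts of the 93 members this was a median of 0.943%, from 0.0239% to 10.1%. Rpl3-ps1 alone was positive in at least 50% of cells, at 63.8%, with 97.7% of its nonzero values fractional. Rps6-ps4 followed at 29.4% and Rpl15-ps3 at 12.7%, with 97.2% and 99.7% fractional, while Rpl14-ps1 at 7.84% had 2.02%. Whether these reads stem from the parent genes was not tested.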

How the results depend on the processing

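Of 61 recomputed values 59 stayed within the spread between cells, or between pairs for the pair r, or within 1.5 times of the count or ratio reported. That spread is wide beside a median, with an SD of 0.293 for the share in percent, so staying within it is a weak criterion. Values counted as within it include the median share without ribosomal RNA loci, 0.762% in place of 0.606%. For Opn4 or Eomes the median share was 0.510% in run A alone in place of 0.651%. With 100 CPM as the threshold 14 members were positive in at least 50% of cells in place of 72, and with 1 CPM 81. With the median transcript length the range of core members per length was 49.5-fold in place of 30.2-fold, and with coding length, added after the data were seen, 32.6-fold with Rpl41 highest. The cause was not tested. Leaving out each run in turn gave 72 to 75 members positive in at least 50% of cells, a median share of 0.590% to 0.670%, a median ratio of 1.88 to 1.93 and a median pair r of 0.23 to 0.29. Leaving the ribosomal RNA loci out of the total changes no ratio of large to small counts by its construction. No paired analysis was possible because the cells form 1 group. Depth limits single cells: at the lowest depth, 58907 gene counts, 10 CPM is less than 1 count.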
